A study of Homo sapiens with 24 samples.

Results

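The comparison described here sets HCT116 cells without a working TNRC6A gene (TNRC6A-/-) against wild-type HCT116 cells, both untransfected. Its members are the libraries that the labels place in these groups, 3 of TNRC6A-/- cells and 3 of wild-type cells, which makes 6 of the 24 RNA-seq libraries of the series. HCT116 is a human colorectal cancer line with an epithelial character. The TNRC6A-/- cells carry a frameshift mutation in TNRC6A and leave TNRC6B and TNRC6C intact, and the wild-type cells leave all 3 genes intact. No duplex RNA or transfection reagent was used in either group. The other untransfected groups of the series, which enter here only where TNRC6A loss is followed in another background, are TNRC6AB-/- cells, without TNRC6A and TNRC6B, and TNRC6B-/- cells, which carry a deletion within TNRC6B, with 3 libraries each. The wild-type line and the knockout lines came from different suppliers, so genotype cannot be told apart from the history of a line. The labels number the replicates without saying that they were separate cultures, so p-values measure the spread between these libraries.

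TNRC6 proteins are the scaffold of microRNA silencing. An Argonaute (AGO) protein loaded with a microRNA finds a matching site in a message, usually in its 3′ untranslated region, and binds the tryptophan-rich repeats of TNRC6. TNRC6 in turn recruits the CCR4-NOT and PAN2-PAN3 deadenylases, which shorten the poly(A) tail, so that the message is decapped and decays. Human cells have 3 paralogs, and the question put to the single knockout is which messages change when only TNRC6A is missing.

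Each of the 6 libraries held between 28144290 and 32381724 estimated reads. In the first principal component, which carried 52.6% of the variance, the TNRC6A-/- libraries lay at 21.9, 17.2 and 16.5 and the wild-type libraries at -11.3, -37.3 and -7.1. Wild-type replicate 2 stood apart from the other wild-type libraries there. On the second component, with 30% of the variance, wild-type replicates 1 to 3 lay at -15.8, 20.1 and -25.8. The summed level of 41 S phase genes was 3011 to 4163 counts scaled for library size (CPM) in TNRC6A-/- libraries, against 3820, 1412 and 3756 CPM in wild-type replicates 1 to 3. For 36 glycolysis and hypoxia targets wild-type replicate 3 was the highest library, at 14554 CPM, against 8319 and 6212 CPM in wild-type replicates 1 and 2 and 9398 to 10391 CPM in TNRC6A-/- libraries. The groups also differed in technical measures. The mean fragment length implied by the transcript lengths was 164.4 to 170.6 bases in TNRC6A-/- libraries and 181.1 to 188.7 bases in wild-type libraries, and the part of these measures in the results was not tested. Of 16 markers of blood, endothelium, fibroblasts, neurons and liver, 7 passed the filter on low counts, none rose or fell, and their summed level was 23.1 to 34.2 CPM in TNRC6A-/- libraries and 27.3 to 34.9 CPM in wild-type libraries. Of 12 colorectal epithelial markers 10 passed the filter, while CDX1 and VIL1 were below it in this line.

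The TNRC6A message itself was lower but still abundant in the knockout. TNRC6A (ENSG00000090905.18, chr16:24610209-24827632, GRCh38, GENCODE 29) had 73.0, 72.6 and 68.3 CPM in TNRC6A-/- cells, against 126, 102 and 127 CPM in wild-type cells. The groups did not overlap, and the log2 fold change was -0.73 ± 0.12 (SE, edgeR quasi-likelihood test, adjusted p = 0.0107). Because a frameshift leaves a message that can still be counted, this level does not by itself check the label. TNRC6C, a paralog that both lines keep, had 89.6, 85.4 and 75.03 CPM in TNRC6A-/- cells, against 57.3, 53.5 and 49.4 CPM in wild-type cells. Its level rose by 0.64 ± 0.11 on the log2 scale (edgeR, adjusted p = 0.0145). TNRC6B had 243, 328 and 277 CPM in TNRC6A-/- cells and 197, 202 and 213 CPM in wild-type cells, and its difference of 0.47 ± 0.13 did not pass the test (edgeR, adjusted p = 0.064). All TNRC6B values in the knockout were above all those in wild type. The fall of TNRC6A was not called without replicate 1, 2 or 3 of TNRC6A-/-, with a highest adjusted p of 0.0634 in edgeR, and the rise of TNRC6C was not called without replicate 1 or 2 of TNRC6A-/-, with a highest adjusted p of 0.074. With counts scaled for transcript length the rise of TNRC6C was 0.45 and did not pass the test (edgeR, adjusted p = 0.0705). Leaving out a library removes 1 of 6 samples, and the fold changes kept their sign.

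Among the partners of TNRC6, the AGO genes did not pass the test. AGO2, the Argonaute that can cut its target, had 564, 548 and 580.0 CPM in TNRC6A-/- cells and 406, 492 and 402 CPM in wild-type cells (log2 0.38, edgeR adjusted p = 0.0897). AGO1 had 164, 147 and 158 CPM in TNRC6A-/- cells against 148, 116 and 154 CPM in wild-type cells. AGO3 and AGO4 overlapped between the groups as well. DICER1, the nuclease that cuts microRNA precursors, was the member of the Argonaute and loading list that rose, with 146, 140.0 and 159.8 CPM in TNRC6A-/- cells against 102, 111 and 112 CPM in wild-type cells (log2 0.45 ± 0.10, edgeR adjusted p = 0.0371). Of the 20 deadenylase genes, CNOT1 and CNOT10 fell and none rose, against 3.25% and 3.96% of all tested genes. The median log2 fold change of this list was 0.008. CNOT1, the scaffold on which the CCR4-NOT complex is built, had 305, 263 and 267 CPM in TNRC6A-/- cells against 475, 430.4 and 430.5 CPM in wild-type cells (log2 -0.68, edgeR adjusted p = 0.0115). DCP2, the enzyme that removes the cap, rose, with 205, 226 and 210.4 CPM in TNRC6A-/- cells against 136, 124 and 155 CPM in wild-type cells (log2 0.63, edgeR adjusted p = 0.0188). ZFP36, which carries deadenylases to AU-rich messages, fell, with 49.4, 63.4 and 50.6 CPM in TNRC6A-/- cells against 99.0, 137 and 94.0 CPM in wild-type cells (log2 -1.01, edgeR adjusted p = 0.0128). None of the 13 microRNA processing and export genes rose or fell. With 1 library left out, the call of DICER1 was kept only without wild-type replicate 2 and that of DCP2 only without wild-type replicate 2 or 3. The call of CNOT1 was lost without TNRC6A-/- replicate 2 or 3 or wild-type replicate 1, that of CNOT10 without TNRC6A-/- replicate 1 or 2 or wild-type replicate 1, and that of ZFP36 without TNRC6A-/- replicate 1 or 3.

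**Figure D1:**
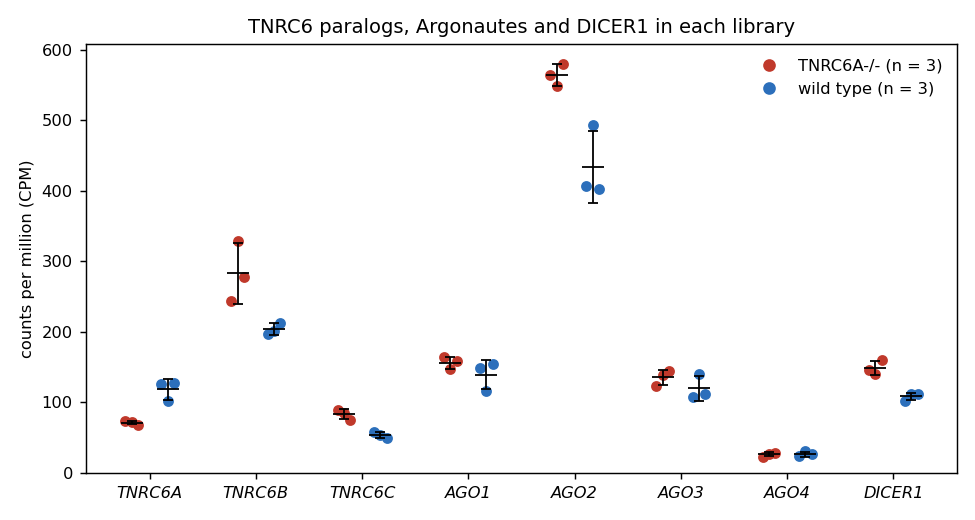
CPM (vertical axis) of TNRC6, AGO and DICER1 genes in each TNRC6A-/- library (red, left of each pair) and each wild-type library (blue, right), with horizontal lines at the group mean and whiskers of 1 SD (n = 3 each). TNRC6A lies between 68.3 and 73.0 CPM in TNRC6A-/- cells, below its 102 to 127 CPM in wild-type cells, while TNRC6C lies higher in all TNRC6A-/- libraries.

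Across the transcriptome, 21358 genes were tested. A gene counted as changed when its adjusted p was below 0.05 and its log2 fold change passed 0.6 either way. By this rule 1247 genes changed (5.84%), of which 658 were higher (3.08%) and 589 lower (2.76%) in TNRC6A-/- cells. Single genes and members of lists are said below to have risen or fallen at an adjusted p below 0.05 alone, by which 845 genes rose (3.96%) and 694 fell (3.25%). Counts of list members are to be read beside these shares. With no threshold on p, 16.8% of tested genes were higher and 15.8% lower in every TNRC6A-/- library than in every wild-type library. The number of changed genes depended on single libraries. It was 1720 when wild-type replicate 2 was left out, 452, 480 and 512 without TNRC6A-/- replicates 1, 2 and 3, and 596 without wild-type replicate 1. The spread between replicates was wider in the wild type, with a biological coefficient of variation of 0.213, than in TNRC6A-/- cells, with 0.112. Counts were also simulated at these depths and spreads. The test called 6.5% of genes with a set log2 change of 0.6, 87% at a change of 1 and 100% at a change of 2. A simulated gene was called at an adjusted p below 0.05 in the set direction, with no threshold on its fold change.

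**Figure D2:**
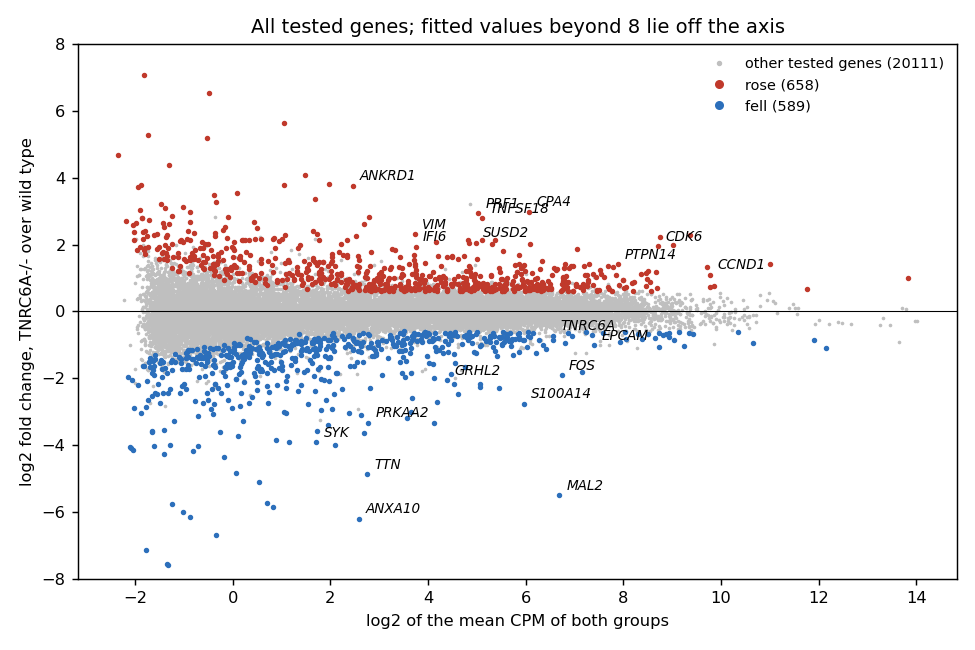
Log2 fold change, TNRC6A-/- over wild type (vertical axis), against mean log2 CPM (horizontal axis) for the 21358 tested genes, with the 658 that rose and the 589 that fell past both thresholds in colour. The changed genes lie on both sides of 0 at all levels of expression, and 12 points beyond 8 either way lie off the axis and are not drawn.

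The largest rises are given for protein-coding genes that did not overlap between the groups and averaged 5 CPM or more in the higher group. ANKRD1 (chr10:90912096-90921276) encodes a muscle ankyrin-repeat protein and is a known target of the YAP and TEAD regulators. It had 8.19, 11.4 and 11.2 CPM in TNRC6A-/- cells against 0.941, 0.649 and 0.667 CPM in wild-type cells. Its log2 fold change was 3.76 ± 0.23 (edgeR, adjusted p = 0.00024). CPA4 (chr7:130293134-130324180), a secreted carboxypeptidase, had 159, 87.7 and 111 CPM in TNRC6A-/- cells against 15.5, 18.97 and 11.1 CPM in wild-type cells, a log2 fold change of 2.98 ± 0.27. PRF1 (chr10:70597348-70602775) encodes perforin, the pore-forming protein of cytotoxic lymphocytes. It had 59.3, 60.4 and 53.9 CPM in TNRC6A-/- cells against 5.78, 5.64 and 11.2 CPM in wild-type cells, while the lymphocyte marker CD3E was below the filter. TNFSF18, a ligand of the tumour necrosis factor family that acts on T cells, had 62.5, 49.4 and 69.4 CPM in TNRC6A-/- cells against 11.3, 7.04 and 7.91 CPM in wild-type cells (log2 2.79 ± 0.21, edgeR adjusted p = 0.00047). SUSD2, a membrane protein with a sushi domain, was named for its small adjusted p and not for the size of its rise. It had 48.8, 45.6 and 58.1 CPM in TNRC6A-/- cells against 12.4, 12.7 and 11.6 CPM in wild-type cells (log2 2.06, edgeR adjusted p = 0.00024). The calls of these 5 genes were kept in every fit that left out 1 of the 6 libraries. The largest rises also included the glycosyltransferase MGAT4C (2.83) and the cell cycle regulator RGCC (2.27). SPARC, VIM and COL13A1, which are described with the matrix genes, were among them as well. HIST1H3D, a histone gene, had 505, 156 and 153 reads in TNRC6A-/- libraries and none in any wild-type library, so that it was at least 94.4-fold higher in TNRC6A-/- cells, taking 3 counts per library as the floor, but histone genes are near copies of each other and the assignment of their reads is uncertain.

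Several of the genes with the largest falls were close to silent in the knockout. ANXA10 (chr4:168092515-168187690), a calcium-dependent membrane-binding annexin, had 0.0354, 0.235 and 0.193 CPM in TNRC6A-/- cells against 10.2, 12.4 and 13.0 CPM in wild-type cells (log2 -6.20 ± 0.34, edgeR adjusted p = 0.000196). MAL2 (chr8:119165034-119245673), a membrane protein of transcytosis in polarised epithelia, had 3.65, 2.55 and 7.18 CPM in TNRC6A-/- cells against 216, 218 and 170.4 CPM in wild-type cells (log2 -5.49 ± 0.36, edgeR adjusted p = 0.000273). TTN (chr2:178525989-178830802), which encodes the sarcomeric protein titin, had 0.425, 0.336 and 0.547 CPM in TNRC6A-/- cells against 11.9, 17.4 and 9.75 CPM in wild-type cells. A pair of enzymes that start O-linked glycosylation fell together. GALNT14 had 0.496, 0.403 and 0.580 CPM in TNRC6A-/- cells against 7.93, 7.14 and 8.92 CPM in wild-type cells. GALNT3 had 1.35, 0.503 and 0.998 CPM in TNRC6A-/- cells against 11.9, 12.4 and 11.5 CPM in wild-type cells. The tyrosine kinase SYK fell by 3.91 on the log2 scale and the ubiquitin ligase PELI2 by 3.39. PRKAA2, a catalytic subunit of the energy-sensing kinase AMPK, had 1.24, 1.24 and 1.22 CPM in TNRC6A-/- cells against 12.1, 14.2 and 11.2 CPM in wild-type cells (log2 -3.34 ± 0.17, edgeR adjusted p = 0.000192). PROM1, which encodes the stem cell surface protein CD133, had 6.17, 3.36 and 4.83 CPM in TNRC6A-/- cells against 28.7, 36.3 and 29.1 CPM in wild-type cells. All of the named falls in this group kept their call with any 1 library left out. ATP2C2, a calcium pump of the secretory pathway (log2 -3.02), lost it without TNRC6A-/- replicate 1, 2 or 3, at a highest adjusted p of 0.0829 in edgeR.

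**Figure D3:**
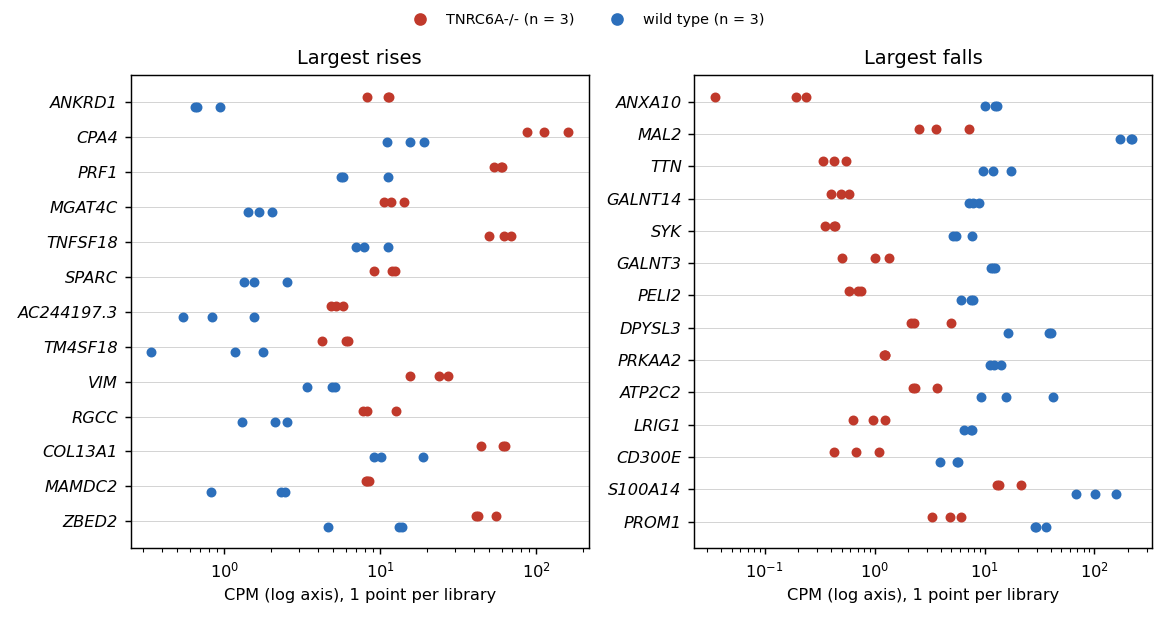
CPM on a log10 axis of the protein-coding genes with the largest rises (left panel) and falls (right panel), 1 row a gene, with a point for each TNRC6A-/- library (red) and each wild-type library (blue), leaving out genes with no read in wild type or with an identical copy. The groups do not overlap in any of these genes, and ANXA10 shows the widest gap, between 0.0354 and 0.235 CPM in TNRC6A-/- cells and 10.2 to 13.0 CPM in wild-type cells.

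Genes of epithelial junctions and polarity were lower in the knockout where they changed. Of 37 tested members 10 fell and none rose, against 3.25% of all genes that fell, and the median log2 fold change was -0.19, against -0.01 over all genes. The number that fell was 5 to 14 when 1 library was left out. GRHL2, a transcription factor that keeps epithelial genes active, had 6.10, 6.61 and 11.5 CPM in TNRC6A-/- cells against 39.3, 29.3 and 33.0 CPM in wild-type cells (log2 -2.07 ± 0.25, edgeR adjusted p = 0.00338). EPCAM, an epithelial adhesion molecule, had 94.3, 108 and 134 CPM in TNRC6A-/- cells against 220.3, 226 and 234 CPM in wild-type cells (log2 -1.01 ± 0.14, edgeR adjusted p = 0.00584). CDH1, which encodes E-cadherin, the adhesion protein of adherens junctions, had 34.7, 38.8 and 57.7 CPM in TNRC6A-/- cells against 90.6, 144 and 78.5 CPM in wild-type cells. Its fall of 1.25 on the log2 scale was called with all 6 libraries (edgeR, adjusted p = 0.0279) and not without TNRC6A-/- replicate 1 or 2 or wild-type replicate 1 (highest adjusted p = 0.118). Other members that fell were MAL2, OVOL1, another epithelial transcription factor, CLDN7, RAB25 and PATJ. Among the 10 tested colorectal epithelial markers the changes ran both ways, as 2 rose and 4 fell, against 3.96% and 3.25% of all genes. ELF3, an epithelial ETS factor, fell, with 36.2, 32.2 and 33.9 CPM in TNRC6A-/- cells against 55.9, 70.1 and 83.8 CPM in wild-type cells. KRT8, a keratin of simple epithelia, rose, with 1252, 1017 and 1227 CPM in TNRC6A-/- cells against 687, 639 and 725 CPM in wild-type cells. Its call was lost without TNRC6A-/- replicate 1 or 3 or wild-type replicate 1. The intestinal factor CDX2 overlapped between the groups, at 6.59, 8.83 and 8.37 CPM in TNRC6A-/- cells and 7.36, 10.4 and 9.46 CPM in wild-type cells.

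Mesenchymal genes rose in part. Of 28 tested members 6 rose and 1 fell, against 3.96% and 3.25% of all genes, with a median of 0.29. The number that rose was 3 to 9 with 1 library left out. VIM, the intermediate filament of mesenchymal cells, had 27.2, 23.8 and 15.5 CPM in TNRC6A-/- cells against 4.87, 3.38 and 5.11 CPM in wild-type cells (log2 2.31 ± 0.24, edgeR adjusted p = 0.00214). ZEB1, a repressor of epithelial genes, had 20.1, 22.4 and 17.2 CPM in TNRC6A-/- cells against 8.47, 10.3 and 9.52 CPM in wild-type cells. SPARC, a matrix glycoprotein that binds collagen, had 9.07, 11.9 and 12.5 CPM in TNRC6A-/- cells against 1.55, 1.33 and 2.51 CPM in wild-type cells. Fibronectin (FN1), MYL9 and ACTA2 also rose, by 0.81, 0.90 and 0.66 on the log2 scale, and TGFBI fell at a level under 1 CPM in both groups. SPARC and VIM kept the call with any library left out. Of 28 collagen and laminin genes 8 rose and 1 fell, against the same 3.96% and 3.25% of all genes. The median of this list was 0.01, and 14 of its members lay above 0. The number that rose was 3 or 4 with 1 library left out other than wild-type replicate 2, without which 10 rose. COL13A1, a transmembrane collagen, had 44.5, 63.2 and 61.1 CPM in TNRC6A-/- cells against 9.11, 10.1 and 18.8 CPM in wild-type cells. COL12A1, a fibril-associated collagen, had 318, 343 and 289 CPM in TNRC6A-/- cells against 145, 96.7 and 135 CPM in wild-type cells. Among 17 integrin subunits ITGB4, ITGB5 and ITGB8 rose and none fell, against 3.96% and 3.25% of all genes, with a median of 0.125. ITGB4, the hemidesmosome subunit, had 954, 1313 and 1345 CPM in TNRC6A-/- cells against 352, 575 and 519 CPM in wild-type cells (log2 1.32). The call was lost for ITGB4 without TNRC6A-/- replicate 2, for ITGB8 without TNRC6A-/- replicate 1 or 3, for ITGB5 without wild-type replicate 1 and for TGFBI without any 1 of the TNRC6A-/- libraries.

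Targets of YAP and TEAD, the coactivator and DNA-binding factors that the Hippo pathway restrains, were tested in 29 genes. Of these 9 rose and none fell, with a median of 0.39, against 3.96% of all genes that rose, and 5 to 13 rose with 1 library left out. Besides ANKRD1, these were AMOTL2, AMOTL1, TGFB2, CRIM1, PTPN14, LATS2, ARHGEF17 and DOCK5. PTPN14 (chr1:214348696-214552449), a phosphatase that holds YAP back, had 350.1, 335 and 344 CPM in TNRC6A-/- cells against 136, 121 and 128 CPM in wild-type cells (log2 1.42 ± 0.10, edgeR adjusted p = 0.000403). AMOTL2, an angiomotin family protein that binds YAP, had 110.2, 123 and 123 CPM in TNRC6A-/- cells against 57.8, 31.4 and 37.0 CPM in wild-type cells. LATS2, a kinase of the Hippo pathway, had 41.8, 48.1 and 45.9 CPM in TNRC6A-/- cells against 28.2, 27.1 and 25.6 CPM in wild-type cells. PTPN14 and LATS2 are also restraints of YAP, so the list holds feedback genes as well as effectors. The call of TGFB2 was lost without TNRC6A-/- replicate 1 or 2 or wild-type replicate 1. The letters GGAATG, on either strand, which TEAD factors are known to bind, occur in 14% of 27305 RefSeq promoters of 300 bases (GRCh38.p14). They are shown in capitals in the promoters of a pair of the targets that rose, on the strand of the gene, as a description and not as a bound site. The ANKRD1 promoter holds 2 matches, of which 1 is shown. It lies at chr10:90921202-90921223 on the minus strand, and that of PTPN14 lies at chr1:214551789-214551810 on the minus strand.
ANKRD1: ctgagtctGGAATGaaaattca
PTPN14: ccgggccgCATTCCtccccgcc

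Interferons signal through a factor complex that contains IRF9 to induce antiviral genes, which keep a low level in most cells without infection. Of 48 tested interferon-stimulated genes 16 rose and 2 fell, against 3.96% and 3.25% of all genes, and the median was 0.66. In 30 members every TNRC6A-/- library was higher than every wild-type library, against 16.8% of all tested genes. The count rested on single libraries, since 2 rose without TNRC6A-/- replicate 2 and 19 without wild-type replicate 2, and 4 rose in a fit of the 12 untransfected libraries. IFI6, an antiviral protein of the endoplasmic reticulum, had 18.1, 26.8 and 19.2 CPM in TNRC6A-/- cells against 6.96, 3.14 and 6.57 CPM in wild-type cells (log2 1.94 ± 0.29, edgeR adjusted p = 0.00785). SAMD9, which restrains poxviruses, had 61.9, 83.7 and 45.4 CPM in TNRC6A-/- cells against 21.3, 8.07 and 17.8 CPM in wild-type cells (log2 2.02 ± 0.35, edgeR adjusted p = 0.0141). In both of these genes wild-type replicate 2 was the lowest library. LGALS3BP, a secreted glycoprotein, had 237, 258 and 275 CPM in TNRC6A-/- cells against 159, 150.4 and 153 CPM in wild-type cells (log2 0.74 ± 0.10, edgeR adjusted p = 0.00633). IFI6 and LGALS3BP kept the call with any library left out, while SAMD9 lost it without TNRC6A-/- replicate 1 or 2, at a highest adjusted p of 0.0642 in edgeR. Other members that rose were OAS1, IRF7, BST2, IFIT2, IRF9 and IFIT3, and IFI44L and XAF1 fell, by 1.04 and 0.65 on the log2 scale.

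The letters GAAANNGAA on either strand, the core of the element to which IRF9 complexes bind, were looked for in the same promoter windows and occur in 8.29% of the 27305 promoters. Of the 48 tested interferon-stimulated genes 36 had a promoter in the RefSeq table, too few to give a share for the list. The word also occurs in members that were not called, among them IFIT1, ISG15 and MX1, and in IFI44L, which fell, so it does not mark the members that rose. It is shown in capitals for 4 of the members described, so that these windows can be compared letter by letter, at chr1:27672291-27672315 (minus), chr7:93118099-93118123 (minus), chr19:17405744-17405768 (minus) and chr10:89327868-89327892 (plus). There are 3 matches in the IFI6 promoter, 2 in that of BST2, which overlap, 2 in that of IFIT3 and 1 in that of SAMD9, and 1 is shown for each.
IFI6: agagagggGAAAATGAAactgcaga
SAMD9: tgagaaatGAAACTGAAaccaaacc
BST2: ctttctggGAAACTGAAactgaaaa
IFIT3: aaattagtTTCACTTTCcagtttcc

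Class I antigen presentation genes, many of which interferon also induces, rose in 6 of 19 tested members, against 3.96% of all genes. None fell, and the median was 0.47. The number that rose was 1 to 7 with 1 library left out. TAPBP, which encodes tapasin, the protein that helps load peptides on class I molecules, had 180.1, 176 and 171 CPM in TNRC6A-/- cells against 74.0, 54.5 and 78.7 CPM in wild-type cells (log2 1.35 ± 0.15, edgeR adjusted p = 0.00241, called with any library left out). The heavy chain genes HLA-B and HLA-C, the peptide-trimming enzyme ERAP1 and the proteasome activator subunit PSME2 were other members that rose, by 0.52, 0.47, 0.68 and 0.58 on the log2 scale. The calls of HLA-C and ERAP1 were lost without TNRC6A-/- replicate 1, 2 or 3 or wild-type replicate 1 or 3. HLA genes are close relatives, and the division of reads among them is uncertain.

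**Figure D4:**
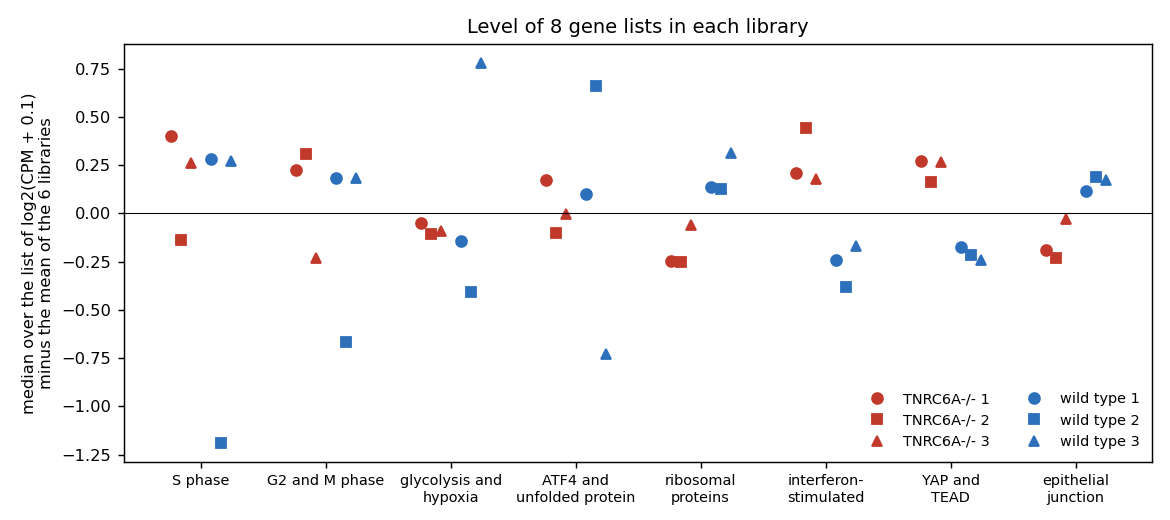
Median deviation of log2(CPM + 0.1) from the mean of the 6 libraries (vertical axis) over the tested members of 8 gene lists, 1 point a library, TNRC6A-/- in red on the left and wild type in blue on the right. Wild-type replicate 2 lies far below the other 5 libraries for the S phase list, at -1.19 against -0.14 to 0.40.

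Of 20 tested G1 cyclins, kinases and inhibitors 3 rose, CDK6, CCND1 and CDKN1A, against 3.96% of all genes, and none fell. The median of the list was 0.54, and 0.26 without wild-type replicate 2, and 2 to 5 rose with 1 library left out. CDK6 (chr7:92604921-92836594), a kinase that drives cells past G1, had 703, 646 and 636 CPM in TNRC6A-/- cells against 185, 133 and 197 CPM in wild-type cells (log2 1.95 ± 0.16, edgeR adjusted p = 0.000629). Its partner CCND1, cyclin D1, had 1173, 1115 and 1294 CPM in TNRC6A-/- cells against 589.6, 522 and 559.7 CPM in wild-type cells (log2 1.10 ± 0.12, edgeR adjusted p = 0.00212). Both kept the call with any library left out. CDKN1A, which encodes the CDK inhibitor p21, had 282, 339 and 316 CPM in TNRC6A-/- cells against 124, 201 and 113 CPM in wild-type cells, and its call (edgeR, adjusted p = 0.0216) was lost without TNRC6A-/- replicate 1, 2 or 3 or wild-type replicate 1, with a highest adjusted p of 0.0914. None of the 41 S phase genes rose or fell, with a median of 0.26, nor did any of the 40 genes of G2 and M, with a median of 0.17. Without wild-type replicate 2 these medians were -0.06 and -0.05, and 1 gene of G2 and M fell. RRM2, a subunit of ribonucleotide reductase needed for DNA synthesis, had 438, 310.4 and 331 CPM in TNRC6A-/- cells against 312, 116 and 306 CPM in wild-type cells. MKI67, a marker of cycling cells, had 1099, 1061 and 850.3 CPM in TNRC6A-/- cells against 1018, 538 and 918 CPM in wild-type cells. In both genes the low value was that of wild-type replicate 2 and the other 5 libraries lay closer together.

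Targets of p53, the damage-responsive factor that HCT116 keeps in working form, were tested in 33 members. Of these 6 rose and 1 fell, against 3.96% and 3.25% of all genes, with a median of 0.42. With 1 library left out 2 to 14 rose. TP53INP1, a stress-induced cofactor of p53, had 72.3, 100.4 and 90.4 CPM in TNRC6A-/- cells against 36.0, 39.0 and 39.7 CPM in wild-type cells. PLK2, a polo-like kinase, had 234, 295 and 244 CPM in TNRC6A-/- cells against 116, 86.7 and 122 CPM in wild-type cells. MDM2, the ligase that degrades p53, had 401, 503 and 426 CPM in TNRC6A-/- cells against 264, 292 and 232 CPM in wild-type cells (log2 0.76). The member that fell was BAX, which opens the mitochondrial outer membrane in apoptosis, at 11.7, 12.2 and 16.4 CPM in TNRC6A-/- cells against 22.5, 21.2 and 26.4 CPM in wild-type cells (log2 -0.79). The call of MDM2 was lost without TNRC6A-/- replicate 2 or 3 or wild-type replicate 1, and that of BAX without TNRC6A-/- replicate 1 or 2 or wild-type replicate 1 or 3.

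Growth factor signalling through ERK switches on immediate early genes within minutes. Of 39 tested ERK feedback and immediate early genes 9 fell and 4 rose, against 3.25% and 3.96% of all genes, and 26 were not called. The median was -0.31, and -0.13 without wild-type replicate 2. The number that fell was 1 without TNRC6A-/- replicate 3 and 4 to 11 with another library left out, and 3 in the fit of the 12 untransfected libraries. FOS, a subunit of the AP-1 factor, had 30.7, 65.7 and 38.1 CPM in TNRC6A-/- cells against 196, 116 and 194 CPM in wild-type cells (log2 -1.91 ± 0.30, edgeR adjusted p = 0.0102). Its relative FOSB had 39.1, 97.6 and 52.1 CPM in TNRC6A-/- cells against 259, 210.3 and 196 CPM in wild-type cells. JUNB, another AP-1 subunit, had 54.0, 58.7 and 51.7 CPM in TNRC6A-/- cells against 103, 87.6 and 106 CPM in wild-type cells (log2 -0.85), and kept the call with any library left out, whereas FOS, FOSB and DUSP1 lost it without TNRC6A-/- replicate 3 (edgeR, adjusted p = 0.0594 for FOS). The phosphatase genes of the list moved apart. DUSP1 fell, with 14.9, 24.5 and 16.6 CPM in TNRC6A-/- cells against 42.1, 40.3 and 50.2 CPM in wild-type cells. DUSP6, which dephosphorylates ERK itself, rose, with 459.6, 479 and 587 CPM in TNRC6A-/- cells against 333, 314 and 299 CPM in wild-type cells (log2 0.69). LIF, KLF2 and ETV4 were the other members that rose, and JUN, EGR1 and EGR2 were among those that fell.

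Wnt and TGF-beta genes are growth regulators of the intestinal epithelium. RNF43 (chr17:58352500-58417595), a ligase that removes Wnt receptors from the cell surface, had 304, 289 and 290.5 CPM in TNRC6A-/- cells against 125, 91.1 and 130.4 CPM in wild-type cells (log2 1.35 ± 0.15, edgeR adjusted p = 0.0025). It was 1 of 5 members that rose among 22 tested Wnt targets and stem cell genes, against 3.96% of all genes. In the same list 2 fell, PROM1 among them, against 3.25% of all genes. The number that rose was 2 without TNRC6A-/- replicate 2 or 3 or wild-type replicate 1, and 3 to 7 with another library left out. Of 33 TGF-beta ligands, receptors and feedback genes 5 rose, against 3.96% of all genes, and none fell. None rose without TNRC6A-/- replicate 1 or 2 or wild-type replicate 1, 1 rose without TNRC6A-/- replicate 3, and 8 rose and 2 fell without wild-type replicate 2. BMP4, a bone morphogenetic protein, had 239, 189 and 193 CPM in TNRC6A-/- cells against 64.1, 25.6 and 81.3 CPM in wild-type cells (log2 1.86), and its call was lost without TNRC6A-/- replicate 1, 2 or 3 or wild-type replicate 1.

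Messages of cytosolic ribosomal proteins lay lower as a group. All 75 cytosolic ribosomal protein genes had a log2 fold change below 0, with a median of -0.36. In 56 of them every TNRC6A-/- library was lower than every wild-type library, against 15.8% of all tested genes. By the test 19 fell, against 3.25% of all genes, and none rose. The count that fell was 1 to 42 with 1 library left out and 1 in the fit of the 12 untransfected libraries. RPL27, a protein of the large subunit, had 232, 227 and 264 CPM in TNRC6A-/- cells against 396, 424 and 461 CPM in wild-type cells (log2 -0.82 ± 0.12, edgeR adjusted p = 0.00611, called with any library left out). RPS27 and RPL38 fell by 0.80 and 0.69 on the log2 scale, calls lost without TNRC6A-/- replicate 1 or 2. With counts scaled for transcript length, 19 ribosomal protein genes fell and the median was -0.33. Ribosomal protein messages are short, and genes with short transcripts lay slightly lower as a class. In the fifth of tested genes with the shortest transcripts the median log2 fold change was -0.07 and 63 genes rose and 102 fell, against 0.07 in the fifth with the longest, in which 189 rose and 77 fell. Fragments were also shorter in the TNRC6A-/- libraries, as given above, and the part of fragment length in these shifts was not tested. Of 13 messages of the mitochondrial genome 4 fell, against 3.25% of all genes, and none rose, with a median of -0.38. With 1 library left out, 1 fell in every case other than wild-type replicate 2, without which 8 fell, and 1 fell in the fit of the 12 untransfected libraries. In all, mitochondrial reads made up 6.17 to 6.53% of TNRC6A-/- libraries against 7.83 to 8.34% of wild-type libraries. None of 32 nuclear genes of the respiratory chain rose or fell, nor any of the 20 aminoacyl-tRNA synthetases or of the 41 genes of the ATF4 and unfolded protein response. The wild-type libraries spread widely in the last 2 lists. The ATF4 list summed to 9251, 12792 and 6009 CPM in wild-type replicates 1 to 3, against 7741 to 9229 CPM in TNRC6A-/- libraries. The synthetases summed to 3045 to 5301 CPM in wild-type libraries and 3875 to 4455 CPM in TNRC6A-/- libraries.

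Spliceosomal and nucleolar small RNAs fell more often than they rose. Of 67 tested spliceosomal snRNA genes and copies 15 fell and none rose, with a median of -0.85. Of 147 snoRNA genes 16 fell and 1 rose, with a median of -0.42. Over all tested genes 3.25% fell and 3.96% rose. The number of snRNA genes that fell was 6 to 23 with 1 library left out. These classes consist of short transcripts and near-identical copies, so the level of a single copy is uncertain. The number of snoRNA genes that fell was 4 to 20. Of 257 genes of the class misc_RNA, another class of small RNAs, 17 rose and 12 fell, with a median of 0.12. A member of this class that fell was RN7SL3, a copy of the RNA of the signal recognition particle, which had 260.2, 268 and 289 CPM in TNRC6A-/- cells against 479.7, 541 and 703 CPM in wild-type cells (log2 -1.08). In the other direction, and chosen after its values were seen, MIR3687-1, a locus with sequence of the ribosomal RNA precursor, had 845, 567 and 718 CPM in TNRC6A-/- cells against 166, 125 and 167 CPM in wild-type cells (log2 2.21). By class, 645 protein-coding genes rose and 430 fell of 14562 tested.

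Documented microRNA targets were looked at next, since TNRC6A is a part of the silencing complex. Of 28 tested targets of the miR-17 and miR-200 families 5 rose, against 3.96% of all genes, and none fell, with a median of 0.23. In 12 of them every TNRC6A-/- library was higher than every wild-type library, against 16.8% of all tested genes. With 1 library left out 1 to 7 rose. Of 28 tested let-7 targets 2 rose and 1 fell, against 3.96% and 3.25% of all genes, with a median of 0.06. NR6A1, an orphan nuclear receptor of germ cells and embryos and a let-7 target, had 33.6, 34.1 and 34.0 CPM in TNRC6A-/- cells against 19.6, 18.1 and 18.4 CPM in wild-type cells (log2 0.86, edgeR adjusted p = 0.00333, called with any library left out). E2F5, a cell cycle factor, was the member that fell, by 0.66 on the log2 scale (edgeR, adjusted p = 0.0477), a call lost without TNRC6A-/- replicate 1, 2 or 3 or wild-type replicate 1.

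A microRNA recognises its target mainly through bases 2 to 8, the seed. Mature sequences from RefSeq (GRCh38.p14) are shown for families at the ends and in the middle of the range found below, with the seed in capitals.
hsa-miR-24-3p: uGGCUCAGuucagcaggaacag
hsa-miR-34a-5p: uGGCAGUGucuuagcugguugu
hsa-miR-17-5p: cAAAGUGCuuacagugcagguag
hsa-let-7a-5p: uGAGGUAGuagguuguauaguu
hsa-miR-200c-3p: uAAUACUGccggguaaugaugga
hsa-miR-23a-3p: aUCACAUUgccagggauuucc

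For 20 families the 3′ untranslated regions of 13147 genes were searched for the 7 bases complementary to the seed. The share of genes that rose was 5.02 to 7.18% among genes with a site and 4.29 to 4.67% among genes without one. For let-7 it was 6.29% with a site and 4.55% without. Genes with a site have longer 3′ untranslated regions, and the number that rose was 71 of 2631 in the fifth with the shortest regions and 175 of 2628 in the fifth with the longest. Within bins of that length, the median log2 fold change of genes with a site minus that of genes without one lay between -0.05 for miR-23 and 0.07 for miR-24. It was 0.07 for miR-34, 0.04 for miR-17, 0.02 for let-7 and -0.04 for miR-200. These are differences of medians over genes, which are not replicates, and no family stood beyond 0.1 either way.

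**Figure D5:**
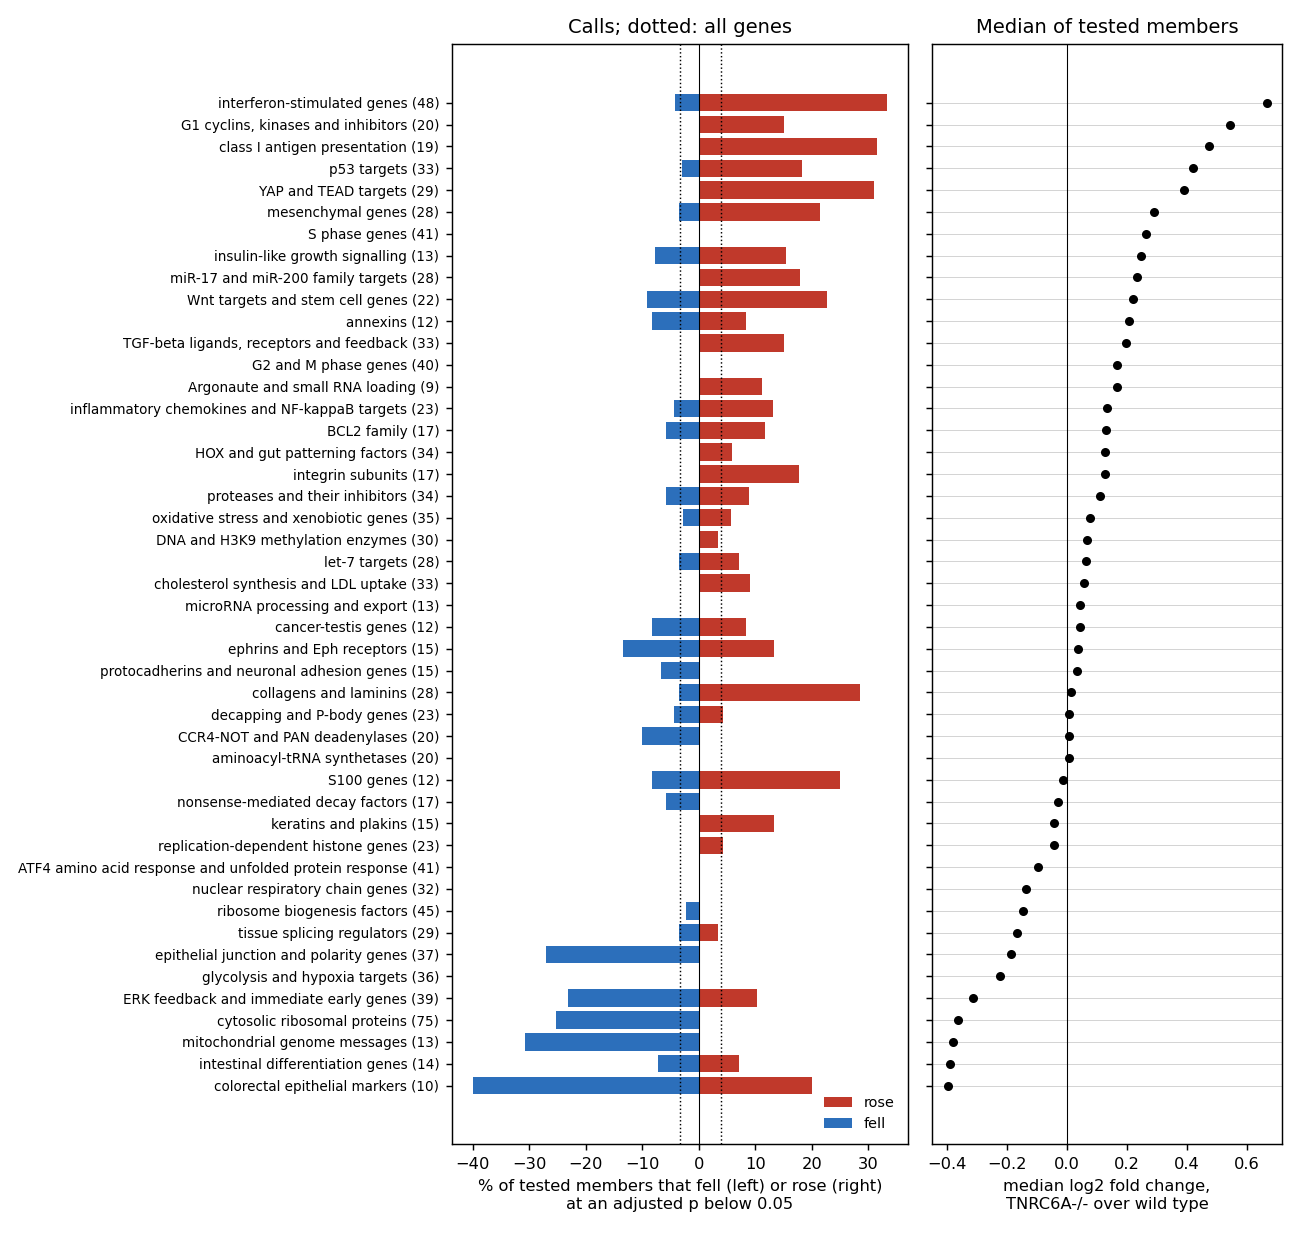
Share of tested members that rose (to the right) and fell (to the left), in percent, for 46 gene lists with at least 9 tested members, with dotted lines at the shares over all 21358 tested genes (3.96% and 3.25%), and in the right panel the median log2 fold change of the tested members. Interferon-stimulated genes reach furthest to the right among the lists described in the text, with 16 of 48. Colorectal epithelial markers, with 4 of 10, and mitochondrial genome messages, with 4 of 13, reach furthest to the left, ahead of epithelial junction genes and ribosomal proteins.

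Changed genes were spread over the genome. The median log2 fold change of a chromosome lay between -0.07 and 0.09 for the autosomes and X, and was -0.37 for the mitochondrial genome. Of 455 windows of 5 Mb with at least 8 protein-coding genes at 5 CPM or more, the lowest was chr5:90000001-95000000, in which 11 such genes lay, 5 fell and none rose, with a median of -0.54.

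Loss of TNRC6A can also be read in cells that already lack TNRC6B, by setting TNRC6AB-/- cells against TNRC6B-/- cells, with no library shared with the comparison above. In a fit of the 12 untransfected libraries 2324 of 22925 tested genes changed there (10.1%), 1226 higher and 1098 lower. Of the 658 genes that were higher in TNRC6A-/- cells than in wild-type cells 254 were also higher in TNRC6AB-/- cells than in TNRC6B-/- cells, which is 38.6% of the first list and 22.1% of the 1151 of the second that were tested in both. In this second comparison 5.35% of all genes were called higher. Of the 589 that were lower 113 were lower in the second as well, 19.2% of the first list and 10.6% of 1069 of the second, against 4.79% of all genes. Calls in opposite directions were found for 12 and 13 genes.

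Most of the changed genes of TNRC6A-/- cells were thus not called in the second background. Of the genes described above, some were called in both and are given first. CPA4 had 129, 142 and 125 CPM in TNRC6AB-/- cells against 4.94, 3.65 and 3.86 CPM in TNRC6B-/- cells (log2 4.98, edgeR adjusted p = 1.13e-07). ANKRD1 had 4.05, 7.58 and 15.5 CPM in TNRC6AB-/- cells against 0.274, 0.696 and 0.473 CPM in TNRC6B-/- cells (log2 4.27). CDK6 had 1005, 872 and 756 CPM in TNRC6AB-/- cells against 269.5, 204 and 228 CPM in TNRC6B-/- cells (log2 1.91, edgeR adjusted p = 1.91e-05). These 3 genes were higher without TNRC6A in both backgrounds. MAL2 was lower in the absence of TNRC6A here too, with 0.935, 6.42 and 14.97 CPM in TNRC6AB-/- cells against 71.8, 148 and 159.9 CPM in TNRC6B-/- cells (log2 -4.09). PTPN14 and TAPBP rose by 1.40 and 1.20 on the log2 scale in the same setting. IFI6 had 32.9, 181 and 205 CPM in TNRC6AB-/- cells against 7.88, 9.53 and 8.69 CPM in TNRC6B-/- cells, a log2 fold change of 4.004, and the difference of 2.06 ± 0.68 from its change with TNRC6A loss alone did not pass the test (edgeR, adjusted p = 0.158).

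For 605 genes (2.64%) the change with TNRC6A loss differed between the backgrounds by a test of the difference itself (edgeR, adjusted p below 0.05). The annexin ANXA10 had 0.0623, 0.197 and 0.222 CPM in TNRC6AB-/- cells against 0.0229, 0.104 and 0.0676 CPM in TNRC6B-/- cells, so that the gene was near 0 in every line other than wild type, and the difference of the changes was 7.58 ± 0.83 on the log2 scale (edgeR, adjusted p = 0.000364). TTN was likewise at a mean of 1.26 CPM in TNRC6AB-/- cells and 0.992 CPM in TNRC6B-/- cells. RNF43 turned round, with 138, 126 and 104.5 CPM in TNRC6AB-/- cells against 185, 164 and 182 CPM in TNRC6B-/- cells (log2 -0.53, edgeR adjusted p = 0.0313). PRF1 had 15.7, 11.8 and 18.8 CPM in TNRC6AB-/- cells against 7.52, 18.1 and 25.3 CPM in TNRC6B-/- cells, with overlapping groups.

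Set directly against each other, the single knockouts differed in 859 of 22925 genes (3.75%), 449 higher (1.96%) and 410 lower (1.79%) in TNRC6A-/- cells than in TNRC6B-/- cells. Leaving out TNRC6B-/- replicate 2 gave 372 such genes, and leaving out TNRC6B-/- replicate 1 gave 1934. CPA4 had 157, 86.3 and 110.0 CPM in TNRC6A-/- cells against 4.94, 3.65 and 3.86 CPM in TNRC6B-/- cells (log2 4.82, edgeR adjusted p = 2.41e-07). MAL2 had 3.60, 2.51 and 7.09 CPM in TNRC6A-/- cells against 71.8, 148 and 159.9 CPM in TNRC6B-/- cells (log2 -4.84, edgeR adjusted p = 0.00133). CNOT1 was lower in TNRC6A-/- cells than in TNRC6B-/- cells as well, at 301, 259 and 264 CPM against 496, 422 and 461 CPM (log2 -0.74, edgeR adjusted p = 0.0034). ANXA10, SAMD9 and FOS did not pass this test, at log2 differences of 1.32, 1.40 and -0.90.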

How the data were processed

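Per the labels, RNA was made into libraries with a strand-specific whole-transcriptome kit. The deposited transcript tables hold estimated counts and TPM, which the authors made with Salmon 0.11.0. Estimated counts were summed to GENCODE 29 genes and rounded. Of 199612 transcripts, 199368 matched, and the 244 others held at most 0.0544% of reads. TPM gave transcript-length scaling in an alternative only. Genes were filtered with filterByExpr, scaled by TMM and tested with edgeR 4.0.16 (quasi-likelihood F test, group only, Benjamini-Hochberg adjustment, R 4.3.3), on the 6 libraries for TNRC6A-/- against wild type and on the 12 untransfected libraries for the other contrasts. CPM are scaled within each fit, so a library's values differ slightly between the fits. Errors are SE from the fit unless named otherwise. Each library held 28144290 reads or more.

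Named genes were the TNRC6 and AGO genes, the 15 largest rises and falls and the 10 smallest adjusted p among changed protein-coding genes with no overlap and a mean of 5 CPM in the higher group, the 3 largest each way of other types, and up to 4 members of each of 48 lists (the most abundant member where none passed). Members and lists were chosen with earlier results of these data known, and other genes named in the text were chosen after their values were seen. Alternatives were DESeq2 1.42.0, limma 3.58.1 (voom), other scalings and filters, all 24 libraries, a replicate block and leaving out each library. The test was tested on simulated data. The 12 transfected libraries entered the fit of all 24 libraries and nothing else. A few genes of the lists are counted but not reported by name here.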

Additional observations from a re-analysis of the deposited data

Results flagged for a closer look

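For 27 of the genes named by rule and reported here, the change with TNRC6A loss differed between cells with and without TNRC6B. The value given for each is the log2 fold change of TNRC6AB-/- over TNRC6B-/- cells minus that of TNRC6A-/- over wild-type cells, tested with edgeR in a fit of the 12 untransfected libraries with adjusted p below 0.05. A positive value means a higher change in the absence of TNRC6B. Groups of 3 libraries were not tested for outlying samples.

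Most of these genes fell in TNRC6A-/- cells and fell less, did not pass the test or rose in the other background. For several of them the level in TNRC6B-/- cells was already so low that a further fall could hardly be seen, with means of 0.0649 CPM for ANXA10, 0.194 CPM for IL32, 0.467 CPM for TGFBI, 0.657 CPM for SYK and 0.992 CPM for TTN. The difference was 7.58 for ANXA10, 5.18 for TTN, 4.98 for the protease inhibitor TIMP3, 4.93 for TGFBI, 3.99 for SYK, 3.65 for LRIG1, 3.46 for the cytokine IL32, 2.30 for PELI2, 2.28 for CD300E, 2.04 for the carbonic anhydrase CA12 and 1.29 for PRKAA2. TIMP3 had 5 reads in all in TNRC6A-/- libraries. Of genes described with lists, the difference was 2.05 for DUSP1, 1.22 for BAX and 0.98 for JUNB. It was 3.48 for RN7SKP203, 3.16 for RNU1-85P, 3.10 for SMIM11B and 2.71 for RPL23AP2, which have close copies elsewhere in the genome, so the assignment of their reads is uncertain. LRIG1, a membrane protein that restrains growth factor receptors, was at a mean of 2.39 CPM in TNRC6AB-/- cells against 1.45 CPM in TNRC6B-/- cells, and fell by 2.93 on the log2 scale in TNRC6A-/- cells relative to wild-type cells.

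Rises of TNRC6A-/- cells differed in both directions. The rise was larger without TNRC6B for TGFB2, a TGF-beta ligand, by 2.60, for CPA4 by 1.999 and for PLK2 by 1.20. The growth factor gene IGF2, whose change in TNRC6A-/- cells was 0.47, had a difference of 1.05. The change was lower without TNRC6B for PRF1 (-3.07), RNF43 (-1.88), SPARC (-1.72) and TNRC6B itself (-0.82), whose locus carries a deletion in both groups of that background. IARS, the isoleucyl-tRNA synthetase, had a mean of 244 CPM in TNRC6AB-/- cells against 547 CPM in TNRC6B-/- cells, a difference of the changes of -1.17.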

How the results depend on the processing

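The number of genes that changed in TNRC6A-/- against wild-type cells was 1247. It was 2086 with all 24 libraries sharing the spread and 452 to 1720 with 1 library left out, and within 1.5 times 1247 under the other settings (914 to 1591). TNRC6A-/- against TNRC6B-/- (859) gave 1993 with 24 libraries, 1460 with no filter on low counts and 372 to 1934 with 1 library left out. TNRC6AB-/- against TNRC6B-/- (2324) gave 1341 to 3155 with 1 library left out. The difference between backgrounds (605) gave 1669 with 24 libraries, 1028 with no filter, 962 with DESeq2 and 318 to 1116 with 1 library left out. The causes were not tested. With the replicate number as a block, which the labels do not tie to a shared culture, 1118 genes changed (931 with counts also scaled for length). Deviations of same-numbered libraries correlated at 0.48, 0.19 and 0.05 over 11886 genes, and those of unlike-numbered libraries at -0.27 to 0.10. The biological coefficient of variation was 0.172 in the main fit, which used group only, and 0.152 with the block. Whether libraries of the same number share a batch was not tested.

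Of 138 named genes called, 65 kept the call with any library left out and 88 under every other setting, and none changed sign. Of those described, ZFP36, CDH1, LGALS3BP, HLA-C, FOS, FOSB, RPL27, RPS27, E2F5, CA12 and IGF2 were not called in the fit of 12 libraries. With length-scaled counts TNRC6C, CNOT10, MDM2, TGFBI, CA12 and IGF2 were not called. AGO4, at -0.01, was 0.019 with 24 libraries, 0.016 with length-scaled counts, 0.070 with the block and length-scaled counts, and -0.11 to 0.095 with 1 library left out. RAN, a nuclear transport GTPase, at 0.04, was -0.10 to 0.13 with 1 library left out. IARS, at -0.005, was 0.00018 with 12 libraries, 0.029 with 24 libraries, 0.030 with voom, 0.0086 with no filter, 0.029 with the block and -0.20 to 0.17 with 1 library left out. Depth limits genes under about 1 CPM, where a library holds few reads.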

Other observations

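VCAN, which encodes the matrix proteoglycan versican, had 802, 945 and 738 CPM in TNRC6A-/- cells against 200.3, 192 and 233 CPM in wild-type cells, and its neighbour XRCC4, a DNA repair protein, rose by 1.70 on the log2 scale beside a rise of 1.99 for VCAN (edgeR, adjusted p below 0.05). Both were chosen after their values were seen, and whether the genes share a transcript was not tested.

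Some loci with sequence of the ribosomal RNA precursor, chosen after their values were seen, were higher in the knockout. MIR3648-1 rose by 1.43 and MIR663AHG by 1.01 on the log2 scale, and the reads of such repeated sequence cannot be placed with certainty.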
